A study of Mus musculus with 17 samples.

Results

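The 29 genes described here encode the enzymes of the tricarboxylic acid cycle, the proteins that bring pyruvate into it, and the enzymes that move its oxaloacetate and malate between compartments. They were chosen by gene symbol, without a rule on measured values but with earlier results of these data known. All 29 were found among the 21982 genes of a count table of mouse brown adipose tissue. Brown adipose tissue is the fat that produces heat. The mice were labelled C57BL/6 and were wild type (labelled Noc+/+) or lacked both copies of Noct, the gene of Nocturnin, a rhythmic enzyme that removes a phosphate from NADP(H). Littermates were housed singly and without food for 4 h at room temperature (22 °C) or in the cold (6 °C). The 4 groups were 4 wild types at 22 °C (3 female, 1 male, labelled ages 11.14 to 23.57), 5 wild types at 6 °C (4 female, 1 male, 11.14 to 23.0), 4 knockouts at 22 °C (1 female, 3 male, 11.14 to 23.57) and 4 knockouts at 6 °C (1 female, 3 male, 11.14 to 17.0). The ages carry no unit in the labels, and the labels do not say which part of Noct was removed, in which tissues, or at what time of day tissue was taken.

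In mitochondria, the pyruvate carrier and the pyruvate dehydrogenase complex turn pyruvate into acetyl-CoA, which citrate synthase joins to oxaloacetate. The cycle then oxidises citrate back to oxaloacetate and passes the electrons to the respiratory chain. In brown fat that chain feeds uncoupled respiration, so the cycle's throughput is part of heat production, and much of its control lies in enzyme activity rather than in transcript level. The malate-aspartate shuttle carries reducing power from the cytosol into mitochondria through paired cytosolic and mitochondrial enzymes.

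Library totals ran from 18410748 to 47598200 counts, and mitochondrially encoded genes took 43.4 to 57.3% of them. Noct was at 91.5 to 176 CPM (counts scaled to library size) in wild types at 22 °C, 238 to 457 CPM in wild types at 6 °C, 3.37 to 34.2 CPM in knockouts at 22 °C and 18.2 to 27.2 CPM in knockouts at 6 °C. The genotypes did not overlap. Ppargc1a, the cold-induced coactivator of mitochondrial genes, was at 92.4 to 493 CPM in wild types at 22 °C and 933 to 1430 CPM at 6 °C, and at 90.3 to 154 and 862 to 1619 CPM in knockouts. All 12 brown adipocyte markers were expressed, and their summed level was higher in the cold without overlap, at 11150 to 12561 CPM and 15373 to 19577 CPM in wild types and 11037 to 14680 CPM and 14911 to 19322 CPM in knockouts. It was also apart with library totals. Of the 12, 5 rose and 2 fell in wild types and 4 rose in knockouts. All 15 skeletal muscle markers were tested, and summed over the list they lay between 27.1 and 1254 CPM, without separating the groups (33.2 to 791 CPM and 48.6 to 1007 CPM in wild types at 22 °C and 6 °C, 65.4 to 1018 CPM and 27.1 to 1254 CPM in knockouts). The summed level of 6 nerve markers separated the temperatures in wild types (85.6 to 120.4 CPM and 140.1 to 168 CPM) and not in knockouts (95.7 to 126 CPM and 117 to 174 CPM). Of these 6, Pmp22 rose and Sox10 fell in wild types, and 1 of the 6 was at 0 in 1 library. Of 8 endothelial markers, 2 rose and 2 fell in wild types, 2 rose and 1 fell in knockouts, and 4 rose and 3 fell in the average, while their summed levels overlapped (338 to 442 CPM and 418 to 520.5 CPM in wild types, 396 to 443 CPM and 385 to 555 CPM in knockouts). Of 11 macrophage markers none passed in either genotype, and their summed levels overlapped (58.6 to 85.7 CPM and 48 to 72.4 CPM in wild types, 52.7 to 59.7 CPM and 57.7 to 101.8 CPM in knockouts). The difference between the responses was above 0 for all 11 macrophage markers, and none passed. The part of these cell types in the results was not tested.

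CPM values below are scaled by TMM, a method that sets libraries level on the bulk of their genes, and serve to compare libraries. RPKM values, which divide by gene length, serve to compare genes. A gene is said to have risen or fallen where edgeR's quasi-likelihood test gave a Benjamini-Hochberg adjusted p below 0.05 over all 12486 tested genes. Fold changes are log2 values ± SE. All 29 members were tested, and the lowest count of any member in any library was 78. In whole tissue, fewer cells of a type and less RNA per cell cannot be told apart.

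Brown fat held most of these transcripts at high level. On the deposited RPKM scale, 27 of the 29 members lay above the median of the tested genes and 24 lay above the 90th percentile. The means over 17 libraries ran from 1.48 ± 0.34 RPKM (SD) for Pck2 to 549.9 ± 73.2 RPKM for Pdhb. The E1 subunits of pyruvate dehydrogenase, Pdhb and Pdha1 (517 ± 51.2 RPKM), stood first, followed by Ogdh (398 ± 57.6 RPKM), the first enzyme of the 2-oxoglutarate dehydrogenase complex, and Sdha (353 ± 34.7 RPKM), the flavoprotein of succinate dehydrogenase. The lowest were Got1 (11.02 ± 5.78 RPKM), Lias (10.2 ± 1.31 RPKM), Got2 (1.78 ± 0.51 RPKM) and Pck2. Of the 28 neighbouring pairs in this order, 8 kept their order in each of the 17 libraries. The other pairs kept it in 8 libraries (such as Dld over Idh3g) to 16 libraries (Pcx over Mpc1). Differences between neighbours were not tested. No member moved by more than 3 ranks between the group means, and 12 held the same rank in all 4 groups.

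**Figure D1:**
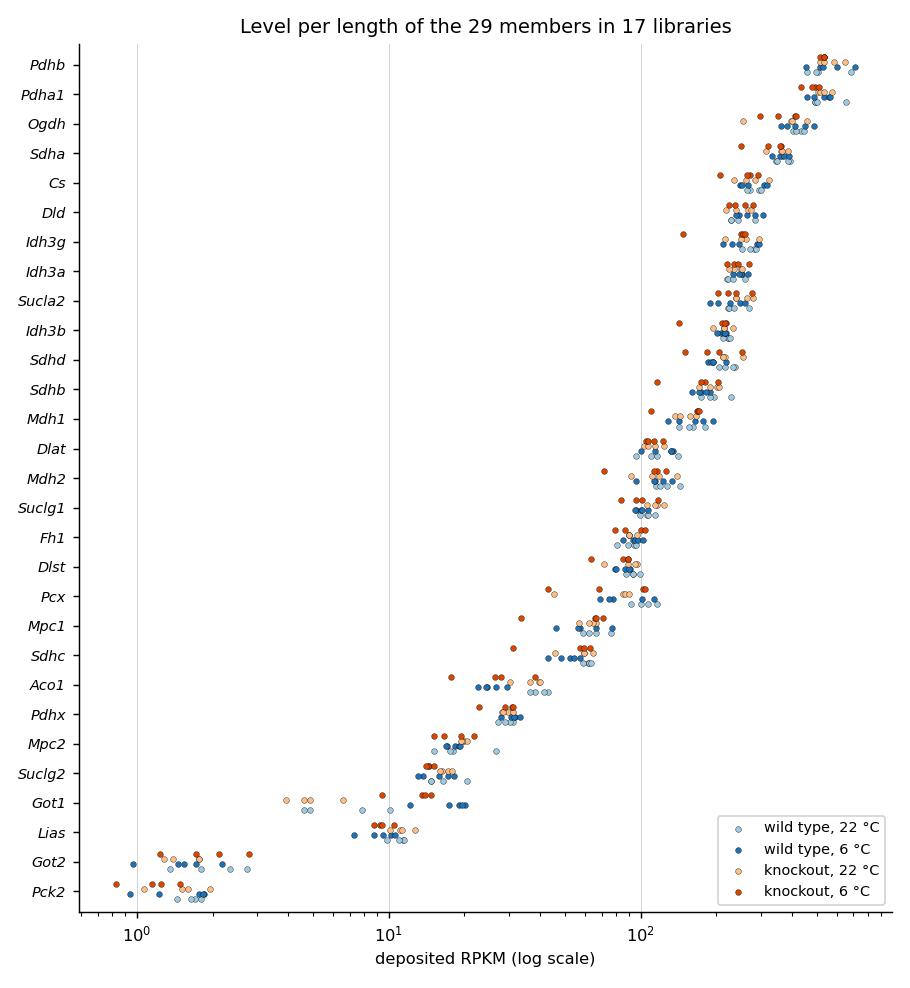
Deposited RPKM (log axis) of each member in each of the 17 libraries, with members ordered by their mean and points coloured by group. Levels span from 1.48 RPKM for Pck2 to 549.9 RPKM for Pdhb, and the groups lie on each other for nearly all members, whereas Got1 is split by temperature.

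The subunits of one complex were not at one level. Within pyruvate dehydrogenase, Pdhb stood at 1.06 ± 0.11 times Pdha1 per length over the 17 libraries, the shared E3 subunit Dld at 0.49 ± 0.061 times, the E2 core Dlat at 0.22 ± 0.020 times and the E3-binding protein Pdhx at 0.058 ± 0.0053 times. The 3 subunits of NAD-dependent isocitrate dehydrogenase lay close together, with Idh3b at 0.88 ± 0.10 and Idh3g at 1.05 ± 0.17 times Idh3a. In succinate dehydrogenase, Sdhd stood at 0.60 ± 0.066, Sdhb at 0.52 ± 0.038 and the membrane anchor Sdhc at 0.16 ± 0.019 times Sdha. For succinyl-CoA ligase, the ATP-linked subunit Sucla2 stood at 2.28 ± 0.27 times the common subunit Suclg1 and the GTP-linked Suclg2 at 0.15 ± 0.018 times. Such ratios depend on the length given to each gene, and 5 members shared over 5% of the 50-base windows of their transcript with other annotated genes. Those shares were 47.2% for Got2, 30.3% for Pdhb, 29.6% for Mpc1, 21.8% for Suclg2 and 16.9% for Pdha1, so their levels are uncertain.

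After 4 h of cold most of these transcripts moved little. In wild types, 3 of 29 members rose (Got1, Pdhx and Fh1) and 1 fell (Aco1), which is 13.8% against 27.6% of all tested genes (14.3% rose and 13.3% fell). In knockouts, 1 of 29 rose (Got1) and none fell, against 21.6% of all tested genes (11.6% rose and 10% fell). The shares of members called were below those of all tested genes in both genotypes. With the cold responses averaged over genotypes, 2 rose (Got1 and Fh1) and 1 fell (Aco1), against 41.1% of all genes (20.6% rose and 20.5% fell).

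The precision behind those counts was higher for the members than over all tested genes. Their median SE was 0.116 in wild types (0.165 for all tested genes) and 0.122 in knockouts (0.175). The 95% interval of the cold change lay within a 1.5-fold change either way for 24 of 29 members in wild types and 25 of 29 in knockouts, against 40.3% and 39.9% of all tested genes. It lay within 2-fold for 28 of 29 in each genotype, Got1 being the exception. Such counts depend on the size of the change as well as on precision. The median within-group SD was 0.17 on the log2 scale for the members and 0.25 for all tested genes. In wild types under TMM, 6 members had cold values above every 22 °C value (Pdhx, Idh3a, Idh3b, Sdha, Fh1 and Got1). Aco1 had them all below, with 13% of tested genes separated upwards and 12.8% downwards. In knockouts Got1 alone was separated upwards and no member downwards, against 10.8% and 9.43% of tested genes. On the deposited RPKM, scaled to library totals, Got1 stayed apart in both genotypes and Aco1 in wild types. The wild-type ranges of Pdhx, Idh3a, Idh3b, Sdha and Fh1 then overlapped, while Sdhc in wild types and Suclg2 in knockouts were apart downwards. The share of all tested genes was not counted on that scale.

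**Figure D2:**
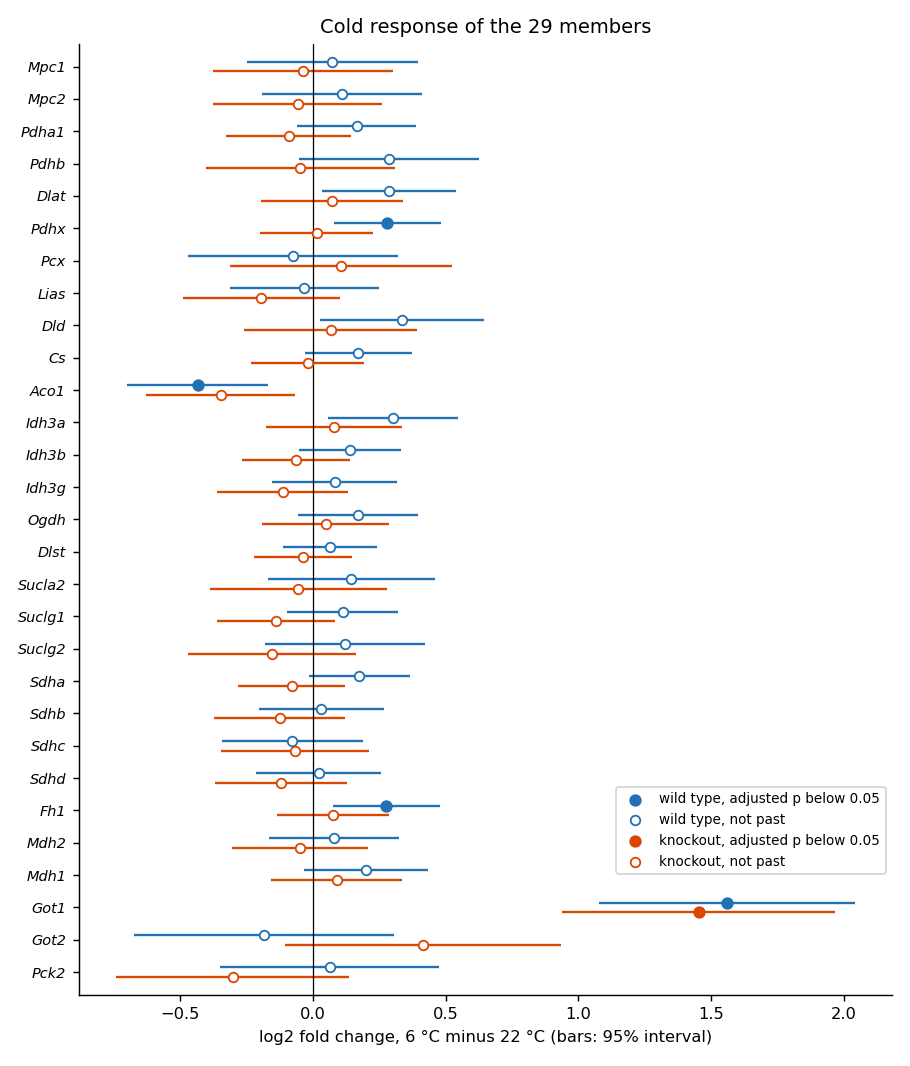
Log2 fold change from 22 °C to 6 °C for each of the 29 members in wild types and knockouts under TMM scaling, with bars for the 95% interval and filled points for an adjusted p below 0.05. Got1 stands apart at 1.56 and 1.45, Aco1 lies below 0 in both genotypes, and scaling to library totals puts 22 of 29 members below 0 in each genotype.

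The side of 0 on which the members lay depended on the scaling. Under TMM, 24 of 29 were higher in cold wild types and 10 of 29 in cold knockouts, against 47.3% and 47.1% of all tested genes. Scaled to library totals, 7 of 29 were higher in each genotype. That scaling shifted the all-gene median in wild types from -0.03 to -0.23 (log2) and in knockouts from -0.02 to -0.09. It also moved the share of rises among all genes called in wild types from 51.8% to 23.0%. Relative to the median of all genes, the members' median was 0.15 higher in wild types under TMM and 0.13 higher under library totals. In knockouts it was -0.03 and -0.02. Relative to that median, 24 of 29 members lay above it in wild types under either scaling, and 11 (TMM) or 12 (library totals) did in knockouts. A change of scaling moves all genes of a comparison by nearly the same amount. Values relative to the median could therefore hardly differ between scalings and are not a second test.

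Got1, the cytosolic aspartate aminotransferase, changed most among the members. Got1 was at 22.4, 18.2, 10.6 and 10.9 CPM in wild types at 22 °C and 46.01, 32.2, 57.7, 48.2 and 46.97 CPM at 6 °C. In knockouts it was 11.1, 10.1, 15.9 and 14.4 CPM at 22 °C and 38.3, 36.3, 42.4 and 23.7 CPM at 6 °C. All cold libraries of each genotype lay above all its 22 °C libraries. Got1 rose by 1.56 ± 0.23 in wild types (2.95-fold, adjusted p = 0.000228) and by 1.45 ± 0.24 in knockouts (2.74-fold, adjusted p = 0.000646), both by edgeR's quasi-likelihood test. The difference between these responses, knockout minus wild type, was -0.11 ± 0.34 with a 95% interval of -0.81 to 0.60 (adjusted p = 1.00). Per length, Got1 stood at rank 26 of 29 over all libraries, with 3.92 to 10.1 RPKM at 22 °C and 9.40 to 20.2 RPKM in the cold.

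Got1 lies on the minus strand of chromosome 19 (GRCm38, 43499752 to 43524605). Of the 29 members, 27 were matched to 34 RefSeq promoters, and 2 of these, of Got1 and Pck2, held the letters TGATGNAAN on either strand within 250 bases before to 50 after the start. These are the letters of the C/EBP-ATF response element, to which heterodimers of ATF4 and C/EBP factors bind. They were present in 5.88% of the members' promoters and 3.95% of all 32851 promoters. The sequences are shown because Got1 rose in the cold in both genotypes and Pck2, the other holder of these letters, did not pass in either. Each is given 5′ to 3′ on the gene's strand, up to the base before the RefSeq start (GRCm38.p6, chr19:43524606-43524855 on the minus strand for Got1 and chr14:55540016-55540265 on the plus strand for Pck2), with the matching letters in capitals (on the minus strand relative to the gene).
Got1: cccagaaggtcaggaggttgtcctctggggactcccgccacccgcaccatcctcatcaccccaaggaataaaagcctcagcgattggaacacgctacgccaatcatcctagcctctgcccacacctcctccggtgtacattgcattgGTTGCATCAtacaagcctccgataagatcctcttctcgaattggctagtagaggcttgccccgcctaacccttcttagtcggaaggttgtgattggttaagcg
Pck2: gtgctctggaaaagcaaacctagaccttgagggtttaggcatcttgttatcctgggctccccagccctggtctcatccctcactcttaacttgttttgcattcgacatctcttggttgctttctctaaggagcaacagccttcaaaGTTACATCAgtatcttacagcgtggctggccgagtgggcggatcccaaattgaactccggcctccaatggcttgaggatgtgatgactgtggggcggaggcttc
The match begins 103 bases before the start in Got1 and 104 bases before it in Pck2. A match is a description of letters, not of a bound site. All letters searched were chosen with earlier results of these data known. Those of the factor NRF1 were in 0.0% of the members' promoters and 0.971% of all promoters. Those of the factor GABPA were in 2.94% (Dlst) and 3.89%, and those of the oestrogen-related receptor in 2.94% (Sdhd) and 0.423%. The cyclic AMP response element TGACGTCA was found in 4 promoters of 2 members, Mdh2 and Ogdh, which is 11.8% of the members' promoters and 1.79% of all promoters, and the Got1 promoter was not among them. Its shorter core TGACG, which the full element contains, was found in promoters of 12 members, 47.1% of the members' promoters against 20.8% of all.

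Got2, the mitochondrial aspartate aminotransferase, did not move with Got1. It was at 5.73, 7.94, 11.97 and 10.02 CPM in wild types at 22 °C and 4.87, 8.65, 7.96, 10.5 and 7.03 CPM at 6 °C. In knockouts it was at 8.04, 6.80, 8.10 and 7.20 CPM at 22 °C and 10.6, 6.26, 9.96 and 13.3 CPM at 6 °C. The groups overlapped, and the changes were -0.18 ± 0.23 in wild types and 0.41 ± 0.25 in knockouts (adjusted p = 0.595 and 0.257, edgeR). The Got1 to Got2 ratio per length was 3.89 ± 2.65 (SD, n = 4) in wild types at 22 °C and 12.04 ± 4.30 (n = 5) at 6 °C, a difference of 1.81 on the log2 scale. An exact two-sided permutation test gave p = 0.0159 (0.254 adjusted over 16 ratio tests). In knockouts the ratio was 3.24 ± 0.61 and 7.35 ± 3.17, a difference of 1.08 (exact permutation p = 0.0857, 0.593 adjusted), where 4 against 4 allows no p below 0.0286. With 47.2% of Got2's windows shared with other genes, how much of Got2's expression was counted is uncertain.

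Mdh1, the cytosolic malate dehydrogenase of the same shuttle, was at 404, 335, 377 and 353 CPM in wild types at 22 °C and 381, 343, 476, 496 and 429 CPM at 6 °C. Its knockout values were 403, 356, 383 and 429 CPM at 22 °C and 441, 458, 339 and 435 CPM at 6 °C. These groups overlapped, and neither change passed (0.20 ± 0.11 and 0.09 ± 0.12). The ratio to the mitochondrial enzyme Mdh2 was 1.28 ± 0.20, 1.40 ± 0.24, 1.33 ± 0.23 and 1.46 ± 0.084 in the 4 groups in the order above, and none of its 4 exact tests passed.

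**Figure D3:**
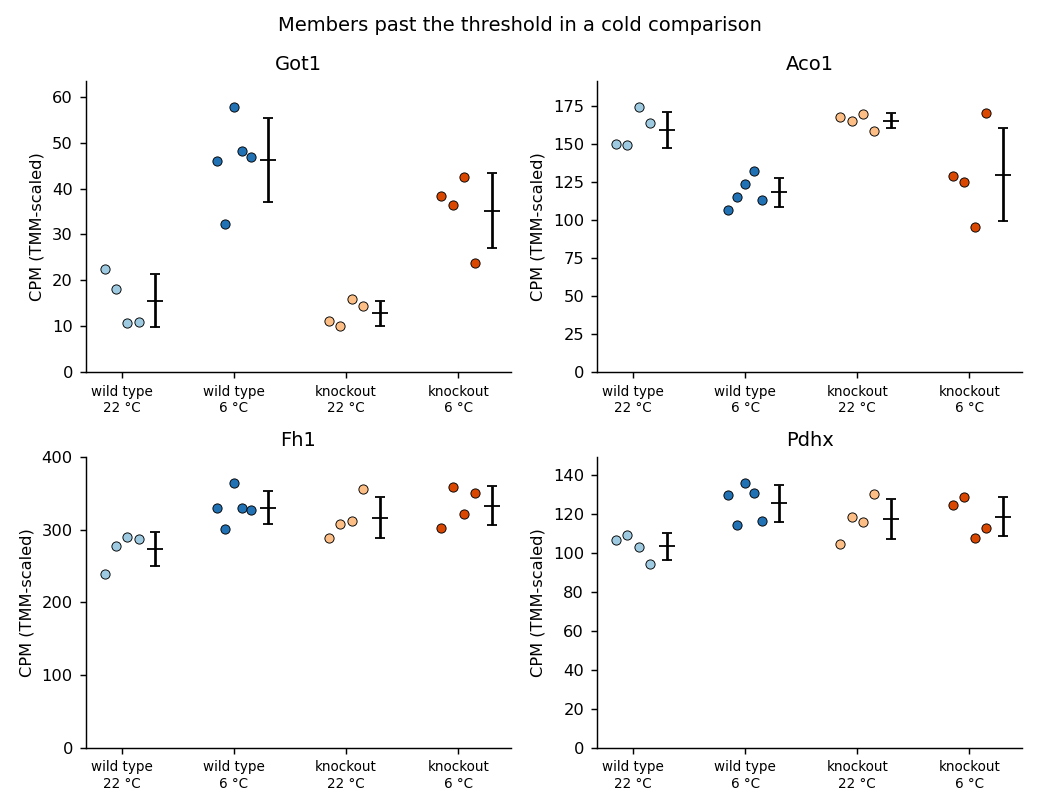
TMM-scaled CPM of Got1, Aco1, Fh1 and Pdhx in each library (points), with the group mean and SD (bars beside them). In wild types the 2 temperatures do not overlap for any of the 4 genes, and in knockouts this holds for Got1 only; scaled to library totals, the changes of Fh1 and Pdhx shrink to 0.07.

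Aco1 was the single member that fell. It encodes the cytosolic aconitase, which without its iron-sulfur cluster acts as iron regulatory protein and binds mRNA. Aco1 was at 149.7, 149, 174 and 164 CPM in wild types at 22 °C and 106, 115, 123, 132 and 113 CPM at 6 °C. In knockouts it was at 168, 165, 169.6 and 158 CPM at 22 °C and 129, 125, 95.4 and 170.1 CPM at 6 °C. The wild-type groups did not overlap, and in knockouts 3 of 4 cold values lay below the 22 °C range while replicate 4 lay just above it. Aco1 fell by 0.43 ± 0.13 in wild types (adjusted p = 0.0167) and by 0.39 ± 0.092 averaged over genotypes (adjusted p = 0.00255, edgeR). In knockouts the change was -0.35 ± 0.13 (adjusted p = 0.0730), and without cold knockout replicate 4 it was -0.50 (adjusted p = 0.00552). In wild types the call was lost without 22 °C replicate 3 (adjusted p = 0.0657) or replicate 4 (0.0513), and with the majority sex of each genotype alone (-0.45, adjusted p = 0.0603). The responses of the genotypes differed by 0.09 ± 0.18 (adjusted p = 1.00).

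Among the 7 genes of pyruvate entry, Pdhx rose in wild types and none passed in knockouts, which is no larger a share than that of all tested genes (14.3% and 11.6% rose). Pdhx, which tethers the E3 subunit to the pyruvate dehydrogenase core, was at 107, 109, 103 and 94.1 CPM in wild types at 22 °C and 129.9, 114, 136, 131 and 116 CPM at 6 °C. Its knockout values were 105, 119, 116 and 130.2 CPM at 22 °C and 125, 129, 107 and 113 CPM at 6 °C. The wild-type groups were apart and the knockout groups overlapped. Pdhx rose by 0.28 ± 0.095 in wild types (adjusted p = 0.0369) and was at 0.01 ± 0.10 in knockouts (adjusted p = 0.947, edgeR). The difference between the responses was -0.27 ± 0.14 with an interval of -0.56 to 0.02 (adjusted p = 1.00). The wild-type call did not hold with library totals (0.07, adjusted p = 0.581). It was also lost on leaving out any 1 of 6 wild-type libraries, namely replicates 1, 3 and 4 at 22 °C and replicates 1, 3 and 4 at 6 °C, with an adjusted p of 0.0541 to 0.111.

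The catalytic subunits did not pass. Pdhb, the E1 beta subunit and the highest member per length, was at 887, 688, 669 and 599.9 CPM in wild types at 22 °C and 701, 801, 1193, 891 and 739.7 CPM at 6 °C. In knockouts it was at 721, 801, 825 and 1116 CPM at 22 °C and 815, 837, 913 and 784 CPM at 6 °C. Its groups overlapped, and replicate 3 of cold wild types and replicate 4 of knockouts at 22 °C were the high ones. Those 2 libraries also had the highest summed muscle markers (1007 and 1018 CPM) and mitochondrially encoded shares (52.2% and 57.3%) of their groups. The part of either in this was not tested. Pdhb changed by 0.29 ± 0.16 in wild types and by -0.05 ± 0.17 in knockouts, Pdha1 (E1 alpha) by 0.17 ± 0.11 and -0.09 ± 0.11, and Dlat (E2) by 0.29 ± 0.12 and 0.07 ± 0.13. Dlat in wild types had an adjusted p of 0.0861, and it passed without 22 °C replicate 1 (0.0348) or 6 °C replicate 1 (0.0479). In the other 28 of 30 alternatives it did not pass. Over all 30 alternative fits its change went as low as 0.08 and its adjusted p as high as 0.624. Pcx, pyruvate carboxylase, which refills the cycle with oxaloacetate, read -0.07 ± 0.19 and 0.11 ± 0.20.

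The mitochondrial pyruvate carrier is a dimer of Mpc1 and Mpc2. Mpc1 was at 139, 126, 111 and 114 CPM in wild types at 22 °C and 101, 125, 132, 160.4 and 131 CPM at 6 °C. Mpc1 in knockouts was at 131, 137, 123 and 138 CPM at 22 °C and 152, 144, 83.5 and 137 CPM at 6 °C. Replicate 3 of cold knockouts, at 83.5 CPM, was the lowest of all libraries, and the groups overlapped. Mpc2 was at 171, 121, 101 and 114 CPM in wild types at 22 °C and 140.5, 130.4, 157, 140.4 and 116 CPM at 6 °C. Mpc2 in knockouts was at 138, 152, 136 and 165 CPM at 22 °C and 146, 169, 133 and 121 CPM at 6 °C. Neither carrier subunit passed in either genotype, with changes from -0.06 to 0.11. Per length their ratio was 3.50 ± 0.44, 3.37 ± 0.65, 3.17 ± 0.17 and 3.23 ± 0.79 in the 4 groups, and no exact test of it passed.

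Dld, the E3 dehydrogenase shared by the pyruvate and 2-oxoglutarate complexes, was at 918, 819, 761 and 742 CPM in wild types at 22 °C and 1089, 1015, 1268, 900.4 and 828 CPM at 6 °C. Its knockout values were 931, 895, 762 and 1179.9 CPM at 22 °C and 896, 1089, 1147 and 821 CPM at 6 °C. The groups overlapped in both genotypes. Dld read 0.34 ± 0.15 in wild types (adjusted p = 0.1001, edgeR) and 0.07 ± 0.15 in knockouts. Lias, the lipoate synthase that supplies the cofactor of the E2 subunits, read -0.03 ± 0.13 and -0.19 ± 0.14. Averaged over genotypes Lias did not pass under TMM, but with library totals it was at -0.25 (adjusted p = 0.0210).

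Of the 5 genes from citrate to 2-oxoglutarate, Aco1 was the one called. Cs, citrate synthase, was at 1493, 1592, 1427 and 1350.2 CPM in wild types at 22 °C and 1491, 1604, 1642, 1777 and 1726 CPM at 6 °C. In knockouts Cs was at 1437, 1668, 1765 and 1587 CPM at 22 °C and 1745, 1663, 1437 and 1518 CPM at 6 °C. The groups overlapped, and Cs read 0.17 ± 0.096 in wild types and -0.02 ± 0.10 in knockouts. Idh3a, the catalytic subunit of NAD-dependent isocitrate dehydrogenase, lay between 1021 and 1153 CPM in wild types at 22 °C and between 1174 and 1525 CPM at 6 °C. Those ranges were apart, but its change of 0.30 ± 0.12 missed the threshold (adjusted p = 0.0623, edgeR). Idh3a passed with DESeq2's Wald test (0.0348) and with the 2 compared groups alone (0.0337). It also passed without cold wild-type replicate 5 (0.0487), knockout 22 °C replicate 4 (0.0421) or cold knockout replicate 4 (0.0408). In the other 25 of 30 alternatives it did not pass. Over all 30 alternative fits its change went as low as 0.09 and its adjusted p as high as 0.440. The companion subunits read 0.14 ± 0.092 (Idh3b) and 0.08 ± 0.11 (Idh3g). In knockouts the 3 subunits read 0.08, -0.06 and -0.11.

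No gene from 2-oxoglutarate to succinate passed in any comparison. Ogdh was at 2072, 2221, 1991 and 1994 CPM in wild types at 22 °C and 2344, 2162, 2212, 2449 and 2507 CPM at 6 °C. In knockouts Ogdh was at 2044, 2197, 2358 and 1620.3 CPM at 22 °C and 2296, 2028, 1941 and 2239.5 CPM at 6 °C. Replicate 4 of knockouts at 22 °C was the lowest of all libraries, and the groups overlapped. Ogdh read 0.17 ± 0.11 in wild types and 0.05 ± 0.11 in knockouts, and its E2 partner Dlst read 0.07 ± 0.084 and -0.04 ± 0.088.

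Succinyl-CoA ligase makes ATP or GTP depending on its beta subunit. Sucla2, the ATP-linked form, was at 940.1, 808, 809 and 825 CPM in wild types at 22 °C and 1034, 944, 1168, 804 and 711 CPM at 6 °C. In knockouts Sucla2 was at 902, 1072, 903 and 1294 CPM at 22 °C and 831, 1166, 1142 and 883 CPM at 6 °C. The groups overlapped, and the changes read 0.15 ± 0.15 and -0.05 ± 0.16. Suclg2, the GTP-linked form, was at 82.9, 62.3, 61.7 and 66.99 CPM in wild types at 22 °C and 82.6, 65.9, 94.8, 73.3 and 57.1 CPM at 6 °C. In knockouts Suclg2 was at 74.9, 76.3, 70.3 and 96.5 CPM at 22 °C and 68.9, 73.4, 79.4 and 64.5 CPM at 6 °C. Its groups overlapped too, with changes of 0.12 ± 0.14 and -0.15 ± 0.15. Per length Sucla2 exceeded Suclg2 in every library, by 14.4 ± 0.94, 14.5 ± 1.38, 15.2 ± 0.99 and 16.2 ± 1.83 times in the 4 groups, and no exact test of the ratio passed. Suclg1, the common alpha subunit, read 0.11 ± 0.0998 in wild types and -0.14 ± 0.11 in knockouts.

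Succinate dehydrogenase is both a cycle enzyme and complex II of the respiratory chain, and none of its 4 subunits passed in any comparison. Sdha was at 1415, 1459, 1282 and 1273 CPM in wild types at 22 °C and 1561, 1539, 1539, 1519.8 and 1507 CPM at 6 °C. In knockouts Sdha was at 1508, 1506, 1431 and 1517 CPM at 22 °C and 1533, 1562, 1239 and 1307 CPM at 6 °C. The wild-type groups were apart by a small margin while the knockout groups overlapped, and the changes read 0.18 ± 0.090 (adjusted p = 0.159, edgeR) and -0.08 ± 0.095. The iron-sulfur subunit Sdhb read 0.03 ± 0.11 and -0.12 ± 0.12, and the anchors read -0.08 ± 0.13 and -0.07 ± 0.13 (Sdhc) and 0.02 ± 0.11 and -0.12 ± 0.12 (Sdhd).

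Fumarate is hydrated by Fh1 and the malate formed is oxidised by Mdh2. Fh1 was at 239, 277, 289.7 and 287 CPM in wild types at 22 °C and 329, 300.3, 364, 329 and 327 CPM at 6 °C. In knockouts Fh1 was at 289, 308, 312 and 356 CPM at 22 °C and 302, 359, 322 and 350.5 CPM at 6 °C. The wild-type groups were apart and the knockout groups overlapped. Fh1 rose by 0.28 ± 0.095 in wild types (adjusted p = 0.0388) and by 0.18 ± 0.069 averaged over genotypes (adjusted p = 0.0495), and read 0.08 ± 0.10 in knockouts (adjusted p = 0.658, edgeR). The responses differed by -0.20 ± 0.14 (adjusted p = 1.00). With library totals the wild-type value was 0.07 (adjusted p = 0.586) and the average 0.04 (0.643). The wild-type call was also lost without 22 °C replicate 1 or 2 or without 6 °C replicate 1, 3, 4 or 5 (adjusted p from 0.0513 to 0.119). The averaged call was lost on leaving out any 1 of 9 libraries, namely wild-type replicates 1 and 2 at 22 °C and 1 and 3 at 6 °C, and knockout replicates 1, 2 and 3 at 22 °C and 2 and 4 at 6 °C (0.0593 to 0.0875).

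Mdh2 was at 395, 465, 369.6 and 377 CPM in wild types at 22 °C and 424, 420.0, 384, 437 and 449 CPM at 6 °C. In knockouts Mdh2 was at 376, 429, 473 and 381 CPM at 22 °C and 428, 424, 305 and 445 CPM at 6 °C. The groups overlapped, and the changes read 0.08 ± 0.12 and -0.05 ± 0.12. Pck2, the mitochondrial enzyme that turns oxaloacetate into phosphoenolpyruvate, was at 4.28, 5.62, 5.26 and 4.96 CPM in wild types at 22 °C and 6.57, 4.34, 6.75, 3.19 and 5.87 CPM at 6 °C. In knockouts Pck2 was at 6.29, 5.48, 4.89 and 4.25 CPM at 22 °C and 4.38, 4.14, 3.36 and 5.02 CPM at 6 °C. It was the lowest member per length, its groups overlapped, and it read 0.06 ± 0.20 in wild types and -0.30 ± 0.21 in knockouts.

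The genotypes were compared at each temperature with the same fit. No member differed between knockouts and wild types at 22 °C, against 0.016% of all tested genes by edgeR's quasi-likelihood test. At an unadjusted p below 0.05 there was 1 member, Suclg1, at 0.26 ± 0.11 (adjusted p = 0.998, edgeR). Suclg1 ran from 416 to 460.4 CPM in wild types and from 463 to 613 CPM in knockouts. It was the single member whose genotypes did not overlap at 22 °C under TMM, against 4.22% of tested genes separated either way (2.29% upwards and 1.93% downwards). On the deposited RPKM, Suclg1 overlapped, at 99.6 to 114 RPKM in wild types and 106 to 123 RPKM in knockouts. At 6 °C no member passed and none had an unadjusted p below 0.05, against 0.04% of all genes called (0.00801% rose and 0.032% fell). No member's genotypes were apart at 6 °C, against 1.04% of tested genes (0.457% upwards and 0.585% downwards). DESeq2 and limma also called none in either comparison.

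Under TMM, 26 of 29 members were higher in knockouts at 22 °C, against 49.7% of all tested genes, with a median of 0.15, but with library totals only 13 of 29 were higher. That scaling shifted the all-gene median from -0.002 to -0.15, and relative to this median 26 of 29 members were higher under either scaling. As for the cold responses, the count relative to the median could hardly differ between scalings and is not a second test. Mitochondrially encoded genes took 45.4 to 48.9% of counts in wild types and 49.1 to 57.3% in knockouts at 22 °C. These ranges did not overlap, and their part in the comparison was not tested beyond leaving those genes out before scaling, which gave 26 of 29 higher. Sex also differed between the genotypes and was a term of the model. No member passed for sex, against 0.0641% of all genes (0.0481% higher and 0.016% lower in males), and none had an unadjusted p below 0.05.

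The test of whether the genotypes responded differently to cold called no member, against 0.00801% of all genes by edgeR, and none had an unadjusted p below 0.05 (1 with DESeq2). The difference, knockout minus wild type, was negative for 25 of 29 members under TMM and for 19 of 29 with library totals. Its median was -0.19 for the members and -0.003 for all tested genes under TMM, and -0.046 and 0.13 with library totals. Relative to the median of all genes, 4 of 29 members lay above it under either scaling, a count that could hardly differ between scalings. The largest in size was Got2 at 0.60 ± 0.34. This comparison shares its 22 °C libraries with the genotype comparison at 22 °C, and its values are not separate evidence. For 20 of 29 members the interval of the difference lay within 1.5-fold. For the other 9 it reached beyond 1.5-fold, so larger differences are not excluded for them.

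Summed over the members, levels came to 16098 ± 870.2 CPM in wild types at 22 °C (SD, n = 4) and 18090 ± 940.6 CPM at 6 °C (n = 5). In knockouts they came to 17735 ± 748 CPM and 17461 ± 927 CPM (n = 4 each). Wild types at 22 °C ran from 15336 to 17217 CPM and cold wild types from 17215 to 19535 CPM, so the groups met at their ends. With library totals the order in wild types turned, to 18006 ± 1179 CPM at 22 °C and 17591 ± 979 CPM at 6 °C. Over single libraries under TMM, replicate 4 of knockouts at 22 °C was the highest of its group in 17 members. Replicate 3 of cold knockouts was the lowest of its group in 16. With library totals, the summed level of that 22 °C library was instead the lowest of its group, at 16052 CPM (others 17446 to 18680 CPM). Replicate 4 of knockouts at 22 °C and replicate 3 of cold knockouts had the highest summed muscle markers of their groups, 1018 and 1254 CPM. They also had the highest mitochondrially encoded shares (57.3% and 57.0%) and the lowest TMM factors (0.859 and 0.835) of their groups. Under TMM both were the lowest of their group for Pcx, Aco1, Ogdh, Dlst, Sdhc and Pck2, and both were the highest for Pdhb, Dlat, Lias, Dld, Idh3a and Suclg2. On the deposited RPKM, scaled to library totals, both stayed the lowest for the former genes. Cold knockout replicate 3 was then not the highest for any of the latter (Pdhb 513 RPKM, others 533 to 535 RPKM). The part of muscle RNA, of the mitochondrially encoded share or of scaling in single libraries was not tested. No muscle marker passed in either cold comparison, but the median SE of the 15 markers was 1.17 (wild types) and 1.24 (knockouts) on the log2 scale. With so wide a spread, even large changes can go uncalled.

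**Figure D4:**
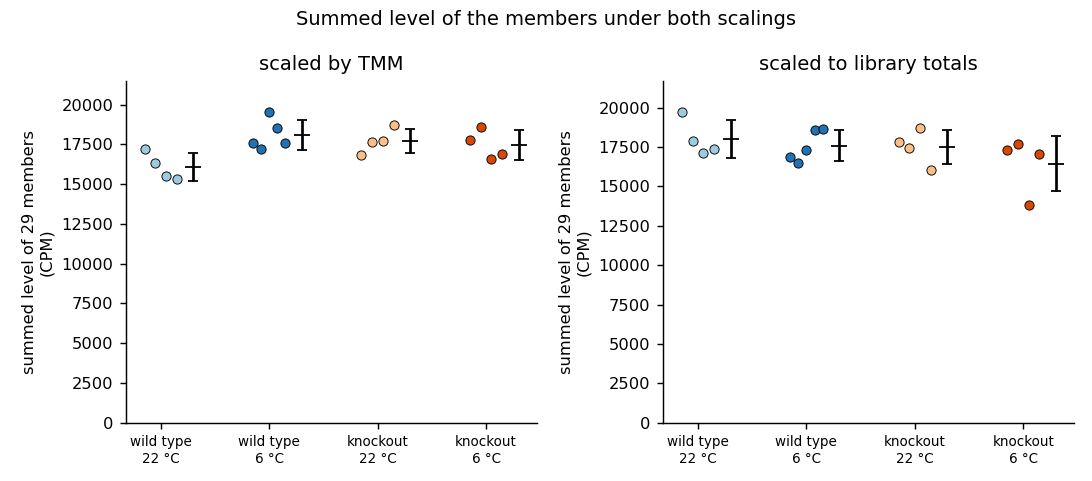
Summed level of the 29 members in each library in CPM, scaled by TMM (left) and to library totals (right), with group means and SD. The mean of cold wild types lies above that of wild types at 22 °C under TMM, where the ranges meet at their ends. Under library totals it lies below.

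Beyond the members, the genes that passed included regulators of pyruvate dehydrogenase and lipoate genes. Of 40 further genes of the pathway (kinases, phosphatases, cofactor and assembly factors, carriers and feeding enzymes), 37 were tested. In wild types 3 rose and 4 fell, in knockouts 2 rose and 4 fell, and averaged over genotypes 3 rose and 7 fell. These are 18.9%, 16.2% and 27% of the 37, against the 27.6%, 21.6% and 41.1% of all tested genes given above. None passed for genotype at either temperature, for sex or for the difference between the responses by edgeR. At an unadjusted p below 0.05 there were 2 for genotype at 22 °C, 1 for sex and none for the other 2.

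Pdk4, the kinase that switches pyruvate dehydrogenase off, was at 1732, 2367, 1912 and 1625 CPM in wild types at 22 °C and 3624, 4383, 3674, 2536 and 3629 CPM at 6 °C. In knockouts it was at 2092, 1874, 1605 and 1228 CPM at 22 °C and 3331, 2945, 2463 and 3835 CPM at 6 °C. Pdp2, the phosphatase that switches it on, was at 114, 138, 156 and 169 CPM in wild types at 22 °C and 254, 205, 207, 163 and 228 CPM at 6 °C. Pdk4 rose by 0.91 ± 0.18 in wild types and 0.88 ± 0.19 in knockouts (adjusted p = 0.00156 and 0.00301, edgeR), with no overlap between the temperatures. Pdp2 stood in knockouts at 136, 109.7, 120.4 and 112 CPM at 22 °C and 165, 248, 196 and 211 CPM at 6 °C. Pdp2 rose by 0.55 ± 0.14 and 0.78 ± 0.15 (adjusted p = 0.0100 and 0.00184), and its wild-type temperatures overlapped. With library totals Pdp2 in wild types was at 0.35 (adjusted p = 0.112). The other kinases and the other phosphatase of the complex did not pass in either genotype. Pdk1 read -0.10 ± 0.11 in wild types and -0.21 ± 0.11 in knockouts, Pdk2 -0.36 ± 0.17 and -0.17 ± 0.18, Pdk3 0.25 ± 0.31 and 0.13 ± 0.34, and Pdp1 -0.0027 ± 0.18 and -0.29 ± 0.19.

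The lipoate and assembly genes Lipt1, Lipt2 and Sdhaf1 fell in both genotypes. Lipt2 and Lipt1 act in the pathway that places lipoate on the E2 subunits, Lipt2 as an octanoyl transferase and Lipt1 as the transferase that passes lipoate on to E2. Lipt1 was at 14.04, 10.9, 14.5 and 15.9 CPM in wild types at 22 °C and 6.80, 8.24, 8.58, 10.3 and 8.53 CPM at 6 °C. In knockouts Lipt1 was at 15.5, 16.5, 18.98 and 24.98 CPM at 22 °C and 10.02, 8.12, 10.05 and 10.4 CPM at 6 °C. Its temperatures did not overlap in either genotype, and it fell by 0.70 ± 0.15 and 0.98 ± 0.16 (adjusted p = 0.00305 and 0.000549, edgeR). Lipt2 was at 3.04, 2.37, 3.51 and 3.02 CPM in wild types at 22 °C and 1.87, 1.86, 1.98, 1.82 and 1.39 CPM at 6 °C. In knockouts Lipt2 was at 3.30, 3.72, 3.29 and 3.83 CPM at 22 °C and 1.60, 2.36, 0.95 and 1.71 CPM at 6 °C, again with no overlap between the temperatures. Lipt2 fell by 0.74 ± 0.21 and 1.09 ± 0.22 (adjusted p = 0.0132 and 0.00226), and the wild-type call was lost without 22 °C replicate 3 (0.0525). Sdhaf1, an assembly factor that helps mature the iron-sulfur subunit of succinate dehydrogenase, was at 13.05, 10.9, 13.5 and 14.5 CPM in wild types at 22 °C and 7.14, 8.37, 9.16, 9.85 and 6.94 CPM at 6 °C. In knockouts Sdhaf1 was at 13.9, 13.4, 15.3 and 13.9 CPM at 22 °C and 10.1, 9.32, 7.89 and 11.5 CPM at 6 °C. The temperatures were apart in both genotypes, and Sdhaf1 fell by 0.65 ± 0.13 and 0.54 ± 0.14 (adjusted p = 0.00170 and 0.00996).

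Idh1, the cytosolic NADP-dependent isocitrate dehydrogenase, was at 171, 138, 157 and 136 CPM in wild types at 22 °C and 85.7, 95.6, 119.7, 163 and 93.5 CPM at 6 °C. In knockouts Idh1 was at 173, 174, 169.6 and 199 CPM at 22 °C and 119, 116, 87.9 and 119 CPM at 6 °C. The wild-type temperatures overlapped through cold replicate 4, and the knockout ones were apart. Idh1 fell by 0.44 ± 0.16 in wild types (adjusted p = 0.0445) and by 0.70 ± 0.17 in knockouts (adjusted p = 0.00630, edgeR). The wild-type call was lost on leaving out any single library other than cold wild-type replicate 4, knockout 22 °C replicate 4 and cold knockout replicates 3 and 4 (adjusted p from 0.0517 to 0.127). The Idh1 call in wild types was also lost with the majority sex of each genotype alone (-0.42, adjusted p = 0.142). The same held with the compared groups alone (0.0735) and without the low-count filter (0.05002). Outside the naming rule, and named after their values were seen, Acss1 (acetyl-CoA synthetase of mitochondria) also rose in wild types by 0.36 ± 0.11 (adjusted p = 0.0233), and Idh2 and D2hgdh fell in the average by 0.26 and 0.21. The Acss1 call was lost with library totals (0.15, adjusted p = 0.366) and without wild-type replicate 1 at 22 °C or replicates 1 or 3 at 6 °C (0.0563 to 0.0790). The Idh2 call was lost with the majority sex alone (0.0883) and on leaving out any single library other than cold wild-type replicate 1, knockout replicates 1 and 4 at 22 °C and cold knockout replicates 1, 2 and 3 (0.0542 to 0.0893). The D2hgdh call was lost without wild-type 22 °C replicate 3 (0.0568) or 4 (0.0512).

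**Figure D5:**
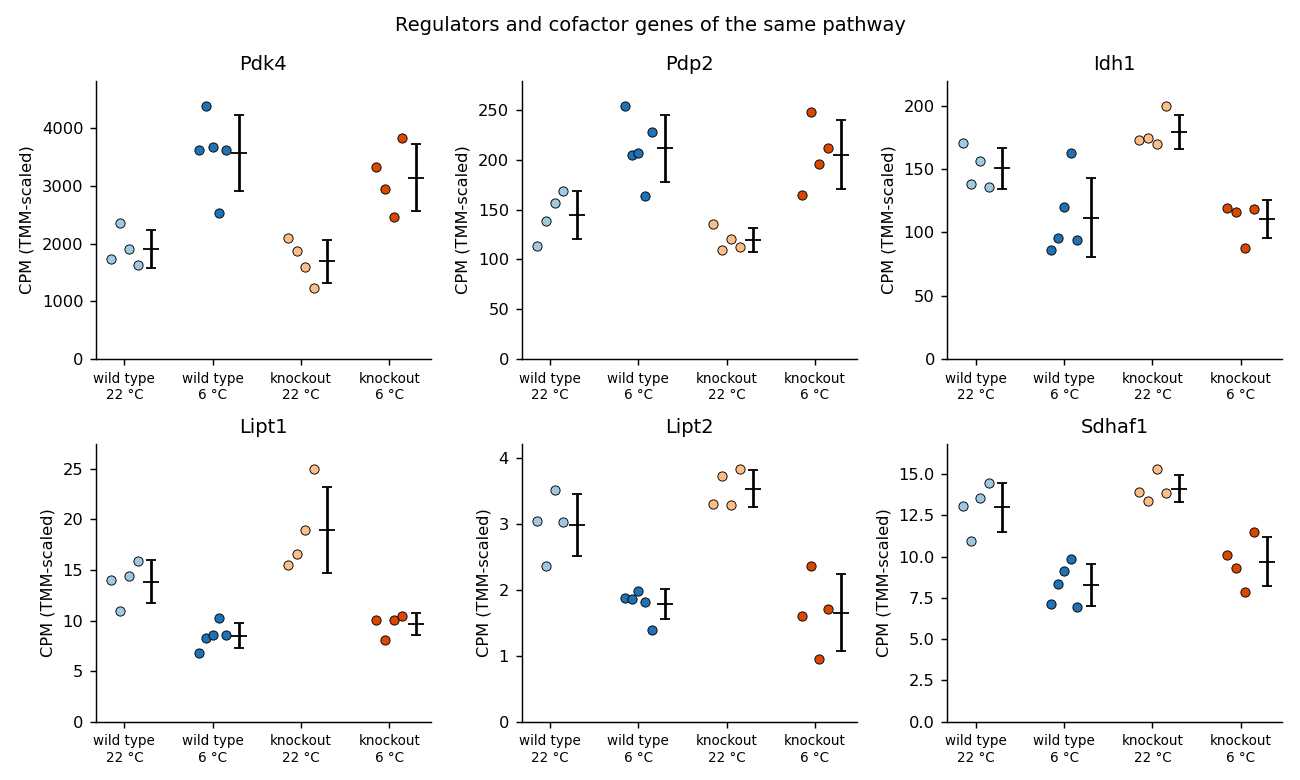
TMM-scaled CPM of 6 further genes of the pathway in each library (points), with the group mean and SD (bars beside them). Pdk4 and Pdp2 are higher in the cold in both genotypes, and Idh1, Lipt1, Lipt2 and Sdhaf1 are lower.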

How the data were processed

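Messenger RNA libraries of 17 mice were analysed, 1 per mouse. The tools STAR and HTSeq and the builds mm10 and GRCm38.p6 are named, per the submitters' processing notes. Versions, annotation and strand setting are not given in the sources used here. The authors deposited raw counts per gene symbol. They also deposited RPKM values, which equalled the counts divided by gene length and library total to a relative spread of at most 1.26e-14.

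Counts were fitted in R 4.3.3 with edgeR 4.0.16 after filterByExpr and TMM scaling. One quasi-likelihood model, with group means and labelled sex as covariate, held all 17 libraries and left 12 residual degrees of freedom. Benjamini-Hochberg adjustment ran over the p-values of 12486 genes at a threshold of 0.05. Alternatives used DESeq2 1.42.0, limma 3.58.1 and other scalings, filters, covariates and samples. Leaving out mitochondrially encoded genes was chosen after seeing the data. On simulated counts with known changes in 100 genes of each fold, 24% of 1.5-fold and 69% of 2-fold changes were recovered for the wild-type comparison, and 25% and 74% for the knockout comparison, with 2 false calls in each.

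The members and lists were chosen with earlier results of these data known. Named genes were all members, with values in every library for called members, the highest of each role and the isoenzyme pairs. From the 40 other pathway genes, up to 6 passing genes of largest change per comparison were named. Shared sequence was counted as 50-base windows found in other genes of GENCODE vM21 (GRCm38). Of the 7 members that overlap exons of an opposite-strand gene, reads may have been counted for the other gene, since the strand setting is unknown. These are Mpc1, Pdha1, Lias, Idh3b, Mdh1, Got2 and Pck2. Replicates are different animals. Reads carry no molecular identifiers.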

Additional observations from a re-analysis of the deposited data

Results flagged for a closer look

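A single library stood far from the others of its group in 7 of 132 gene and group combinations checked, where chance gives about 6.6. In cold knockouts, replicate 3 was the low one in 3 members. It read 477.7 CPM for Idh3g (others 693 to 727), 121 CPM for Sdhc (others 192 to 204) and 305 CPM for Mdh2 (others 424 to 445). That library also had the highest summed muscle markers, 1254 CPM, and 57.0% mitochondrially encoded counts, whose part was not tested. In wild types at 22 °C, replicate 1 was the high one for Pdha1, at 2131 CPM (others 1659 to 1682), and for Sucla2, at 940.1 CPM (others 808 to 825). In knockouts at 22 °C, replicate 4 was high for Lias, at 67.8 CPM (others 46.9 to 49.0), and replicate 3 was low for Sdha, at 1431 CPM (others 1506 to 1517).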

How the results depend on the processing

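Got1 kept its call in both genotypes under all 30 alternatives run for each. In cold wild types, 2 members passed in place of 4 under library totals, no low-count filter, the replicate block with sex, the majority sex of each genotype and limma-trend with a pseudocount of 1 or 0.1, and 2 to 5 on leaving out 1 library. In knockouts 1 to 2 passed on leaving out 1 library, and 2 without cold replicate 4. Averaged over genotypes 2 to 5 did, and 5 without knockout 22 °C replicate 4. No member passed for genotype, sex or the difference between the responses under any alternative. Replicate numbers showed no pairing of animals. Same-numbered deviations correlated above 0.1 in 11 of 24 pairs (-0.42 to 0.44), and 5 of 16 samples correlated best with their own number. With the replicate block 2 members passed in wild types (Got1 and Aco1, not Pdhx or Fh1), 1 in knockouts (Got1) and 2 in the average (Got1 and Aco1, not Fh1). The blocked exact permutation tests of the ratios could not reach a p below 0.125. On leaving out 1 library, near-zero ratio differences changed sign. In cold wild types they ran from -0.043 to 0.053 for Sucla2/Suclg2 and from -0.16 to 0.033 for Mpc1/Mpc2. They ran from -0.12 to 0.16 for Mpc1/Mpc2 in cold knockouts and from -0.19 to 0.093 for it between genotypes at 6 °C. Between genotypes at 22 °C they ran from -0.064 to 0.13 for Mdh1/Mdh2 and from -0.35 to 0.37 for Got1/Got2. The log2 ratio of summed levels was 0.17 in wild types and -0.034 with library totals, and for genotype at 22 °C 0.14 and -0.041. Over all genes, 2697 calls in knockouts became 1589 with the compared groups alone and 1647 with the majority sex. Calls ran from 0 to 10 around 2 for genotype at 22 °C, 3 to 12 around 5 at 6 °C and 1 to 43 around 8 for sex. In the simulation, 69 to 74% of 2-fold and 24 to 25% of 1.5-fold changes were recovered. It changed 100 randomly drawn genes of each fold, whereas 27.6% (wild types) and 21.6% (knockouts) of all tested genes passed in the data. The adjusted threshold was therefore stricter in the simulation, and the members had a smaller spread than most genes. How often changes of the members were missed was not tested.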

Other observations

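Of the pathway genes listed, 3 were too low to test. Nnt, the transhydrogenase that links NADH to NADPH in mitochondria, had 0 to 5 counts per library, Slc25a13, an aspartate-glutamate carrier, had 0 to 9, and Ogdhl, a relative of Ogdh, had 0 to 6. These counts were low in every group of the 17 libraries.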
